A study of Mus musculus with 16 samples.

Results

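The genes described here are 10 members of the calcium/calmodulin kinase group, chosen by gene name from 22572 named entries of an expression table of mouse hippocampus: Camk2a, Camk2b, Camk2d, Camk2g, Camk4, Camk1, Camk1d, Camkk1, Camkk2 and Camkv. They were chosen in part because Camk2a, the most abundant of them, is listed at 0 in every library of 1 group. That observation picked the gene, so its zeros are given as a description with no test. All 10 names were found, each at 1 locus, and all 10 passed the filter on low values, which kept entries averaging 1 FPKM or more across 16 libraries. FPKM is the number of fragments scaled by transcript length and library size.

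Calcium that enters a neuron binds calmodulin, and the complex switches on a family of serine/threonine kinases. The 4 CaMKII genes (Camk2a, Camk2b, Camk2d, Camk2g) encode subunits that assemble into multi-subunit holoenzymes. Those made of the alpha and beta subunits are very abundant at excitatory synapses of the forebrain, where CaMKII is needed for long-term potentiation. A second branch is a cascade: the upstream kinases Camkk1 and Camkk2 phosphorylate Camk1, Camk1d and Camk4, and Camk4 acts largely in the nucleus on the transcription factor CREB. Camkv is a vesicle-associated pseudokinase of the same fold that supports dendritic spines.

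Hippocampus was taken from male C57BL/6 mice in 4 groups of 4 libraries: wild type on regular water, wild type on 15% (w/v) fructose in the drinking water, Bgn0/- knockout on regular water and Bgn0/- knockout on the same fructose solution. Drinking began at 3 months of age and lasted 6 weeks. The gene removed, Bgn, codes for biglycan, a proteoglycan with leucine-rich repeats found in extracellular matrix. Messenger RNA was selected by its poly(A) tail and sequenced, and the labels do not say whether the 4 libraries of a group came from separate mice, so a p-value measures the spread between libraries, which may be technical.

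Depth is unknown, since the table gives FPKM and no read counts. Named entries summed to 342721 to 376209 FPKM per library. Loci without a name held 51.0 to 55.5% of all FPKM in wild-type water and 48.6 to 62.8% in knockout water. Their share was 46.8 to 59.9% in wild-type fructose and 59.4 to 70.4% in knockout fructose. The part of this share in the results on fructose was not tested. Replicate 1 of every group stood apart: its root mean square log2 difference from replicates 2 to 4 of its own group had a median of 0.358, against 0.226 among replicates 2 to 4. Bgn itself was at 4.46 to 7.60 FPKM in the 8 knockout libraries and at 9.94 to 24.2 FPKM in the wild-type libraries on water. The library labelled wild-type fructose replicate 1 had 5.42 FPKM of Bgn, inside the knockout range, while the other 3 of its group had 17.2 to 21.2 FPKM. Knockout fructose replicate 4 had the largest share of unnamed FPKM (70.4%) and the most named entries at 1 FPKM or more (12885). The upper quartile of those entries was the lowest of all libraries there (23.1 FPKM). Values without these libraries are given beside the results on fructose that turn on them, for kinase members and for genes called in the pathway lists. Excitatory neuron markers were present in every library, with a summed level of 1753 to 2529 FPKM over 8 genes, and of the genes of 12 marker lists found in the table a single one, the striatal marker Adora2a, had a mean under 1 FPKM.

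The regulatory sequences shown are the 250 bases before the RefSeq start of Camkk2, Camk1d and Camk2b, the 3 members whose levels passed the test between the genotypes on fructose when replicates 2 to 4 were used alone, a setting in which 10.9% of all genes passed. Camk1d has 2 annotated starts in RefSeq and the more upstream one is shown. They come from RefSeq on GRCm38.p6, are written 5′ to 3′ on the gene's strand, and have GC boxes (GGGCGG, read on both strands, overlaps counted) in capitals.
Camkk2 (chr5:122779411-122779660, minus strand): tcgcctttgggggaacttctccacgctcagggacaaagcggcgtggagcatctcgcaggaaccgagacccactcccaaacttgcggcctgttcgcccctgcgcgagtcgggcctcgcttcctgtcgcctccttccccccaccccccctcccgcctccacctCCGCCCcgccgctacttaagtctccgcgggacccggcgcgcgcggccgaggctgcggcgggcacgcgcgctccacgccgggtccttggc
Camk1d (chr2:5714763-5715012, minus strand): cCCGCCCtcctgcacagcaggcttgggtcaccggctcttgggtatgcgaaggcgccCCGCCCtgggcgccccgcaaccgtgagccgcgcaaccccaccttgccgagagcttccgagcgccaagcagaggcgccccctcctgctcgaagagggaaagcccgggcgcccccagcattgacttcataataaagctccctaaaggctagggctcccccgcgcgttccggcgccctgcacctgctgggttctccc
Camk2b (chr11:6065749-6065998, minus strand): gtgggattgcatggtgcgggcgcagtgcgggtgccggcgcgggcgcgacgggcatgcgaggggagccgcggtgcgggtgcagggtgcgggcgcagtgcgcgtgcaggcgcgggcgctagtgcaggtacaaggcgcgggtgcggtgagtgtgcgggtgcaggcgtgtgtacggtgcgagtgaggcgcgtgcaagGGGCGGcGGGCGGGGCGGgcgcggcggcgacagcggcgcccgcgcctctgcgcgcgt
All 3 windows are rich in G and C, with 72.4% for Camkk2, 69.2% for Camk1d and 78.4% for Camk2b against a median of 52.4% over 32851 promoters of the same length. The Camkk2 window holds 1 GC box and the Camk1d window 2. The Camk2b window holds 3, of which the 2 nearest the start overlap by 1 base. A GC box was found in 7 of the 8 windows that matched 7 members, and in 32.7% of all promoters. The short CRE core (TGACG, both strands) was found in 2 of the 8, the windows of Camk1 and Camkk1, against 17.8% of all promoters. The full CRE (TGACGTCA), the element bound by the Camk4 target CREB, was in 0 of the 8 and in 1.55% of all promoters. A match is a match of letters and nothing more.

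Camk2a encodes the alpha subunit of CaMKII, the leading autophosphorylating kinase of the forebrain synapse. In wild-type mice on water the 4 libraries had 992, 1558, 1593 and 1346 FPKM of Camk2a (replicates 1 to 4). In wild-type mice on fructose all 4 were listed at 0. In the knockout on water the values were 781, 991, 1203 and 1657 FPKM, and in the knockout on fructose 1256, 1013, 1671 and 1505 FPKM. The 12 libraries with a value thus lay between 781 and 1671 FPKM with nothing between that range and 0, and replicate 1 was the lowest of its group on water in both genotypes. The excitatory markers of the same 4 libraries summed to 2167 to 2529 FPKM. An exact 0 in such a table can be a failed estimate or an absence of RNA. Which of these holds was not tested, so the gene is described here only as listed at 0.

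Where Camk2a had a value, it was among the most abundant messages of the tissue. Its mean over the 12 libraries was 1297 FPKM, which ranks 11 among the named entries, and it made up 0.221 to 0.461% of the named FPKM of a library. It exceeded Camk2b, the beta subunit, in all 12, by a ratio that ran from 2.00 to 4.75. Its coefficient of variation over the 12 libraries was 23.4%, above the median of 13.3% for the other 49 of the top 50 entries, of which 6 varied more. None of those 49 was listed at 0 in any of the 16 libraries.

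The comparisons that do not use the wild-type fructose group have values on both sides. Their fit takes 1 spread per gene from all 16 libraries, and the 4 zeros of Camk2a add libraries without any spread. The SE, intervals and p-values given here for Camk2a may therefore be too small. On water Camk2a averaged 1158 ± 374.6 FPKM in the knockout (SD, n = 4) and 1372 ± 276.1 FPKM in the wild type. The difference was -0.28 on the log2(FPKM + 1) scale (SE 0.21, 95% interval -0.71 to 0.16), with an adjusted p of 1 by limma (Benjamini-Hochberg over 12648 genes), and the groups overlapped. In the knockout, fructose gave 1361 ± 288.2 FPKM (SD, n = 4) against 1158 on water. That difference was 0.26 (SE 0.21, 95% interval -0.17 to 0.70; limma adjusted p = 0.606), again with overlapping groups.

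**Figure D1:**
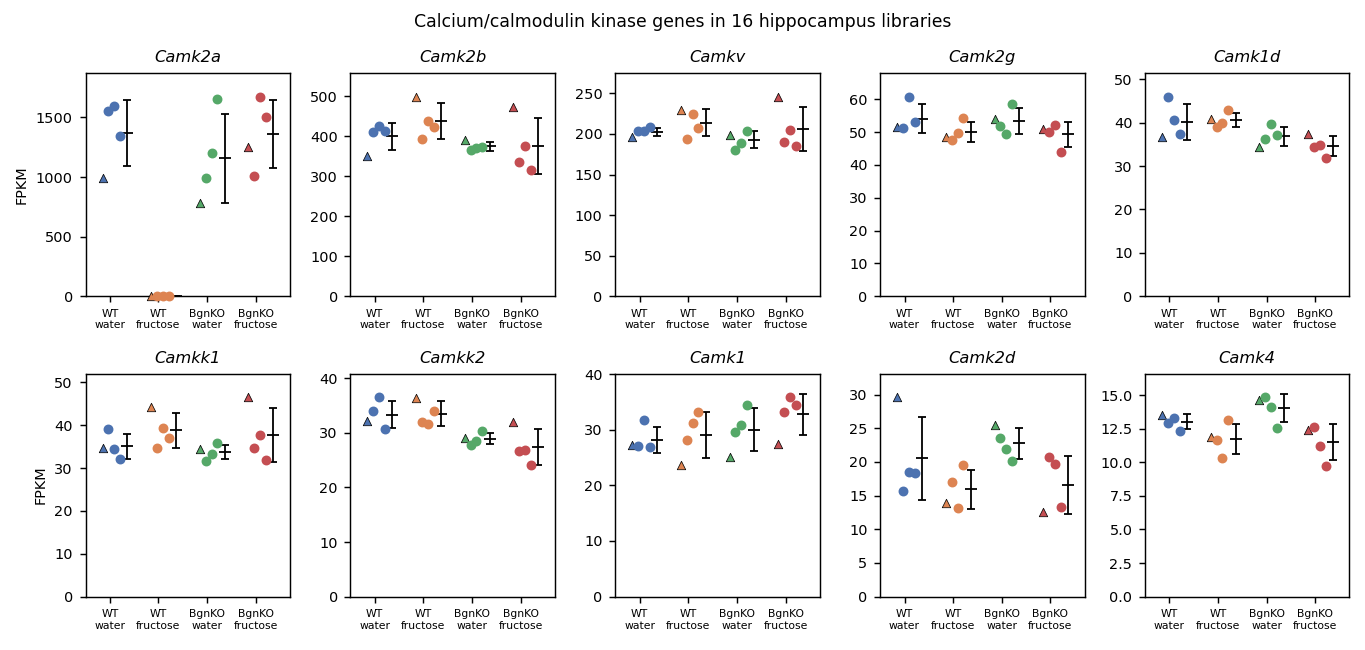
FPKM of the 10 kinase genes in each of the 16 libraries (vertical axis, a scale of its own in each panel, from 0) by group (horizontal axis). Triangles are replicate 1, circles replicates 2 to 4, and the black marks the group mean with its SD (n = 4). Camk2a lies on the zero line in the 4 wild-type fructose libraries and between 781 and 1671 FPKM elsewhere, and no other member is near 0.

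The pattern was looked for in the whole table of 27670 loci, 4269 of them without a gene name. A locus at 0 in all 4 libraries of one group and at 1 FPKM or more in each of the other 12 occurred once, and it was Camk2a. The count was the same with a minimum of 0.5 or 5 FPKM, and it was 0 for the wild-type water, knockout water and knockout fructose groups. With the looser demand that the other 12 libraries average 1 FPKM or more, 11, 13, 12 and 12 loci were at 0 throughout wild-type water, wild-type fructose, knockout water and knockout fructose. Each of these except Camk2a was also at 0 in at least 2 libraries of other groups. Most were small nucleolar RNAs, microRNA precursors or unnamed loci. The ribosomal precursor Rn45s was at 0 throughout both knockout groups and above 0 in every wild-type library. Its mean outside either knockout group was 417 FPKM. Unnamed loci with means of 14.0 and 41.7 FPKM outside either wild-type group were at 0 throughout both and above 0 in every knockout library. Zeros across whole groups were thus not confined to Camk2a. Among the 12 others of the wild-type fructose group were Mir137, Snord88c and Snord8, each at 0 in 11 of the other 12 libraries.

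Camk2a lies on the plus strand at chr18:60925618-60988152 (mm10), where it is annotated with 6 protein-coding transcripts, the longest of 4970 bases in 18 exons. No unnamed locus adjoined it in the order of the table. The nearest before it was 16 loci away and had a mean of 1.78 FPKM in the wild-type fructose libraries and 1.19 FPKM in the other 12. The nearest after it was 44 loci away, at 1.07 and 1.02 FPKM. Counted from its neighbour Slc6a7 on the minus strand, the nearest unnamed loci were 117 before (0.406 against 0.442 FPKM) and 26 after (1.00 against 0.617 FPKM). All 4 are smaller by orders of magnitude than the level missing from Camk2a, a mean of 1297 FPKM elsewhere.

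The named genes beside it showed no gain of that size either. Arsi, a sulfatase gene directly upstream on the same strand, had 0.370 to 0.613 FPKM in the 4 wild-type fructose libraries and 0.268 to 0.641 FPKM in the other 12. Further upstream lie Tcof1, which encodes the nucleolar protein treacle, and the entry of Cd74, the major histocompatibility class II invariant chain. They had 4.73 to 7.32 and 1.32 to 7.54 FPKM in the wild-type fructose libraries, against 4.48 to 6.64 and 2.84 to 22.2 FPKM in the others. Downstream, Slc6a7, the brain proline transporter on the opposite strand, had 18.2 to 21.4 FPKM against 16.4 to 24.1 FPKM. The homeobox gene Cdx1 was at or near 0 in every library, at most 0.0188 FPKM. The growth factor receptor Pdgfrb had 4.37 to 6.25 FPKM against 4.05 to 8.84, and Csf1r, the microglial receptor, 17.0 to 19.1 FPKM against 15.8 to 28.6. Of these 7 entries, all overlapped between the wild-type fructose libraries and the rest. Of the microRNA genes Mir7220 and Mir6982, annotated inside Camk2a, 0 loci carry the name in the table.

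**Figure D2:**
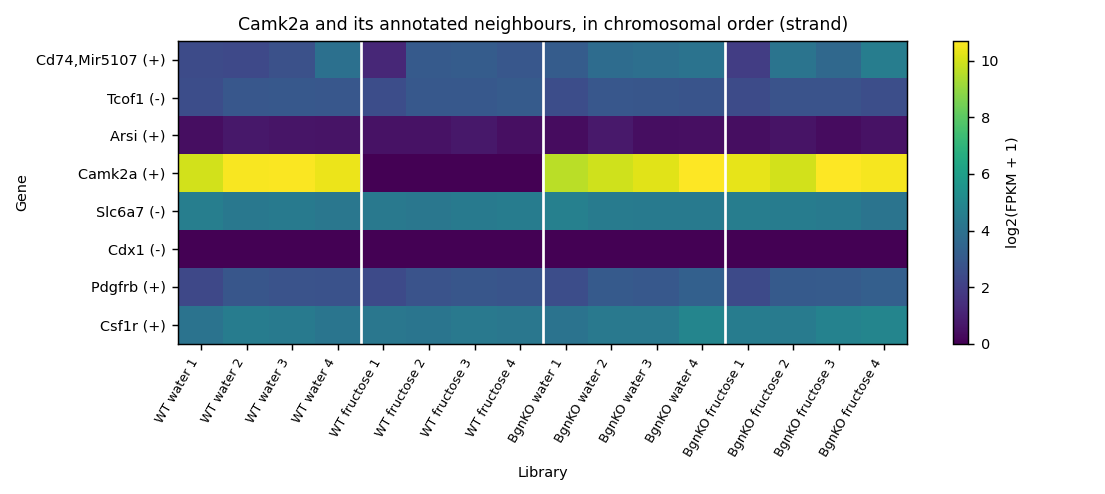
Level of Camk2a and of the annotated genes on either side (vertical axis, in chromosomal order with the strand in brackets) in the 16 libraries (horizontal axis, white lines between groups); colour is log2(FPKM + 1). The 4 wild-type fructose columns are dark for Camk2a, and the columns of the neighbours, such as Slc6a7 at 18.2 to 21.4 FPKM, resemble those of the other libraries.

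Across the table, 21 loci, 2 of them unnamed, were higher in each of the 4 wild-type fructose libraries than in any of the other 12. None lay within 50 loci of Camk2a. The largest gain in mean level was 41.6 FPKM, at an unnamed locus, the largest at a named one was 8.64 FPKM, at Nisch, and all 21 gains together came to 113 FPKM. That sum is far below 1297 FPKM. FPKM is scaled by length, and loci that overlapped the other 12 libraries were not counted. Whether another locus took up fragments of Camk2a was therefore not tested.

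Sequence shared with other genes was counted in words of 31 bases. Of 7473 distinct words in the Camk2a transcripts, 59 (0.789%) also occurred in another annotated gene, read on both strands. The largest numbers were outside the members, with 31 in Gm43686, 17 in Ankmy2 and 15 in Igfbp4. Between members, read on the transcript strand alone, 6 words were shared with Camk2b, 2 with Camk2d, 4 with Camk1d, 1 with Camkk2, and 0 with each of the other 5. Camk2b and Camk2d, Camk2b and Camk2g, and Camk2d and Camk2g shared 0 words. At this length the transcripts of the CaMKII paralogs, which are close as proteins, hold almost no words in common.

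Camk2b, the beta subunit, which binds actin and tethers the holoenzyme in spines, was the second most abundant member, with a mean of 397 FPKM over 16 libraries. In wild-type mice on water it had 351, 410, 426 and 414 FPKM, and in wild-type mice on fructose 498, 393, 439 and 423 FPKM. In the knockout it had 391, 365, 372 and 372 FPKM on water and 474, 335, 377 and 317 FPKM on fructose. The 4 wild-type fructose libraries in which Camk2a was listed at 0 thus lay at 393 to 498 FPKM, within or above the 351 to 426 FPKM of wild-type water, and replicate 1 was the highest in 3 of the 4 groups. Fructose against water in the wild type gave 0.13 (SE 0.11, 95% interval -0.11 to 0.37; limma adjusted p = 1).

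The other CaMKII subunits were lower. Camk2g, the gamma subunit, widely expressed and known to shuttle calmodulin to the nucleus in neurons, ranged from 43.8 to 60.6 FPKM and varied least of the 10 members (coefficient of variation 7.76%). Camk2d, the delta subunit, best known from the heart, ranged from 12.5 to 29.6 FPKM and varied most of the 9 members other than Camk2a (25.1%). Its values were 29.6, 15.7, 18.4 and 18.4 FPKM in wild-type water, 13.9, 17.1, 13.1 and 19.5 in wild-type fructose, 25.4, 23.6, 21.96 and 20.1 in knockout water and 12.5, 20.8, 19.7 and 13.2 in knockout fructose. Replicate 1 was the highest library of both water groups and the lowest of the knockout fructose group.

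The cascade kinases lay close together. Mean levels over 16 libraries were 38.1 FPKM for Camk1d, 36.3 for Camkk1, 30.8 for Camkk2 and 30.0 for Camk1, with ranges that overlapped for every pair of these 4. Camk4 was the lowest member, at 9.71 to 14.8 FPKM, and the pseudokinase Camkv stood between Camk2b and Camk2g at 180 to 245 FPKM. In the order of levels, Camk2a, Camk2b, Camkv and Camk2g were separated from each other by ranges that did not overlap, leaving aside the zeros of Camk2a. The range of Camk2g overlapped that of Camk1d, Camk1 overlapped Camk2d, and Camk2d overlapped Camk4. These are levels per length of transcript, so they can be compared between genes.

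Fructose against water in wild-type mice asks what the sugar did with Bgn intact. Of the 9 members other than Camk2a, 0 were called (limma adjusted p under 0.05) and 0 had an unadjusted p under 0.05. Over all 12648 genes tested, 0.00791% were called, which is 1 gene, Camk2a itself, whose zeros the choice of genes had used. Camk2d had the lowest value, 15.9 ± 2.96 FPKM on fructose and 20.5 ± 6.18 on water (SD, n = 4), a difference of -0.33 with a 95% interval of -0.73 to 0.08 (limma adjusted p = 1). Camkk1, the upstream kinase enriched in brain, had the highest, 38.8 ± 4.07 against 35.1 ± 2.91 FPKM, a difference of 0.14 with an interval of -0.08 to 0.36 (limma adjusted p = 1). The groups overlapped for all 9, while over all genes 1.87% had groups that did not.

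**Figure D3:**
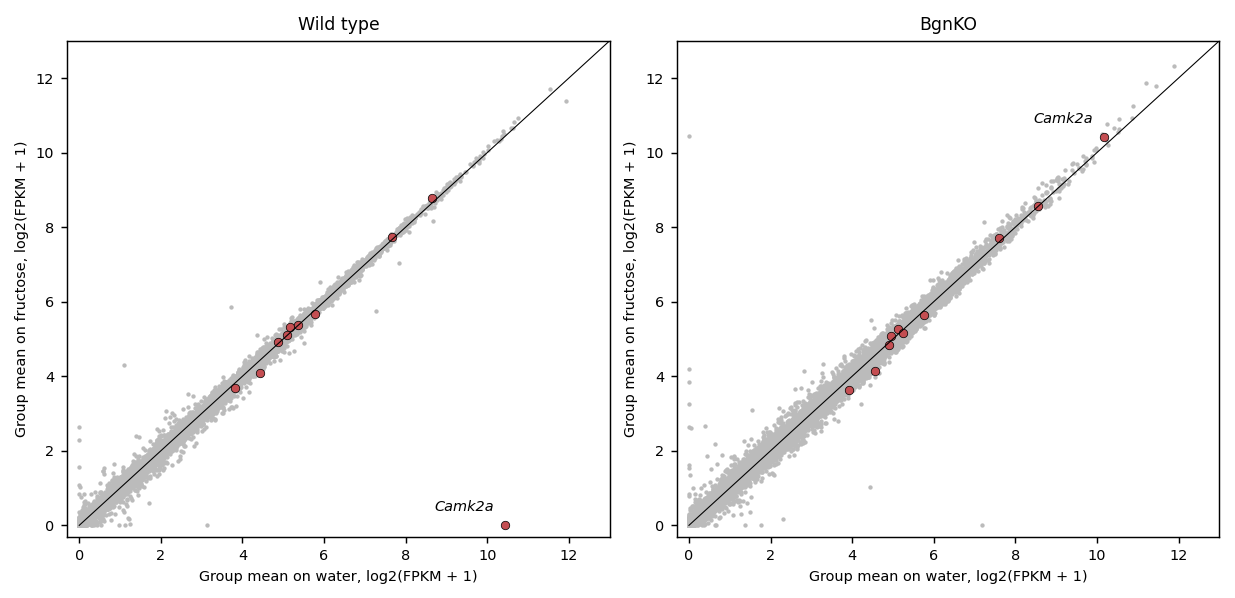
Group mean on fructose (vertical axis) against group mean on water (horizontal axis), both as log2(FPKM + 1), for every named entry (grey) and the 10 members (red), in the wild type (left) and the knockout (right); the line marks equal levels. Camk2a sits at 0 on fructose in the wild type and near the line in the knockout, and the other 9 members follow the line in both. The high grey points on the axes of the knockout panel are Mir137 and Snord88c, each above 0 in a single library of the 16.

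In the knockout, fructose against water gave 0 called among 10 members and 0% called among all genes. By limma 2 members had an unadjusted p under 0.05, where 12.9% of all genes did. Camk4, the CREB kinase, had 14.7, 14.8, 14.2 and 12.6 FPKM on water and 12.4, 12.7, 11.2 and 9.71 FPKM on fructose. The groups overlapped by the highest fructose library and the lowest water library, at 12.7 and 12.6 FPKM. They overlapped for all 10 members, and 3.99% of all genes had groups that did not. The difference was -0.27 (SE 0.09, 95% interval -0.45 to -0.09; limma adjusted p = 0.318). Camk2d had 22.8 ± 2.28 FPKM on water and 16.6 ± 4.29 on fructose (SD, n = 4), a difference of -0.47 (SE 0.19, limma adjusted p = 0.345). In the wild type the same comparison gave -0.14 (95% interval -0.32 to 0.04) for Camk4. The difference between the genotypes was -0.13 for Camk4 (SE 0.12, limma adjusted p = 0.999).

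Knockout against wild type on water asks what the absence of biglycan did alone. Of the 10 members 0 were called by limma, against 0.387% of all genes, and 1 had an unadjusted p under 0.05, against 5.3% of all genes. That member was Camkk2, the upstream kinase that also phosphorylates the energy sensor AMPK. It had 32.2, 34.0, 36.5 and 30.7 FPKM in the wild type and 29.1, 27.8, 28.6 and 30.4 FPKM in the knockout. Every knockout library was below every wild-type library. A lack of overlap, in either direction, held for 1 of the 10 members and for 4.01% of all genes. The difference was -0.19 (SE 0.08, 95% interval -0.37 to -0.02; limma adjusted p = 0.811).

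Knockout against wild type on fructose was the comparison with the most calls, 3.76% of all genes, of which 1.63% were higher and 2.13% lower in the knockout as shares of all genes tested. Of the 9 members other than Camk2a, 0 were called by limma, 7 were lower and 2 higher in the knockout, and 2 had an unadjusted p under 0.05, where 21.3% of all genes did. Their median difference was -0.05, against -0.01 for all genes. Without the library labelled wild-type fructose replicate 1 and knockout fructose replicate 4, 3 were lower and 6 higher. Without knockout fructose replicate 4 alone, 4 were lower and 5 higher. The 2 with an unadjusted p under 0.05 were Camkk2 and Camk1d, a substrate kinase of the cascade that is expressed in neurons and granulocytes. With a term for replicate 1 in the fit both passed (limma adjusted p = 0.0159 and 0.0364), where 17.3% of all genes did.

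Camkk2 had 36.5, 32.0, 31.6 and 34.1 FPKM in wild-type fructose and 32.0, 26.8, 27.0 and 24.1 FPKM in knockout fructose. Replicate 1 was the highest of both groups, and its knockout value alone reached the wild-type range. The difference was -0.29 (SE 0.08, 95% interval -0.46 to -0.11), with a limma adjusted p of 0.0615. Among replicates 2 to 4 alone the groups lay apart, the difference was -0.32 and the limma adjusted p was 0.0218. Without knockout fructose replicate 1 the limma adjusted p was 0.0146, and without the library labelled wild-type fructose replicate 1 it was 0.121, with a difference of -0.25. Without that library and knockout fructose replicate 4 the difference was -0.19 (limma adjusted p = 0.288).

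Camk1d had 40.8, 39.0, 39.9 and 42.8 FPKM in wild-type fructose and 37.3, 34.4, 34.7 and 31.8 FPKM in knockout fructose. All 4 knockout libraries were below all 4 wild-type libraries. A lack of overlap, in either direction, held for 1 of the 9 members and for 11.0% of all genes. The difference was -0.23 (SE 0.07, 95% interval -0.39 to -0.07; limma adjusted p = 0.0958). Among replicates 2 to 4 it was -0.26 (limma adjusted p = 0.0451), without the library labelled wild-type fructose replicate 1 it was -0.23 (0.137), and without that library and knockout fructose replicate 4 it was -0.19 (0.304).

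Camk2b followed, at 438 ± 44.4 FPKM in the wild type and 375 ± 70.2 FPKM in the knockout (SD, n = 4), with overlapping groups and a limma adjusted p of 0.244. Replicate 1 was the highest library of both groups. Among replicates 2 to 4 the means were 418 ± 23.2 and 343 ± 30.8 FPKM (SD), a difference of -0.29 with a limma adjusted p of 0.0322, and without knockout fructose replicate 1 it was -0.35 with an adjusted p of 0.0382. Without the library labelled wild-type fructose replicate 1 it was -0.17 (limma adjusted p = 0.418), and without that library and knockout fructose replicate 4 it was -0.10 (0.706). Camk1, the namesake of the CaMKI kinases, went the other way without passing, at 32.8 ± 3.68 against 29.1 ± 4.20 FPKM (SD, n = 4; difference 0.17, limma adjusted p = 0.408). Its difference was 0.08 without the library labelled wild-type fructose replicate 1 and 0.05 without that library and knockout fructose replicate 4. Camk2d, Camk2g, Camk4, Camkk1 and Camkv differed by -0.06 to 0.04, with adjusted p of 0.756 to 0.933.

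**Figure D4:**
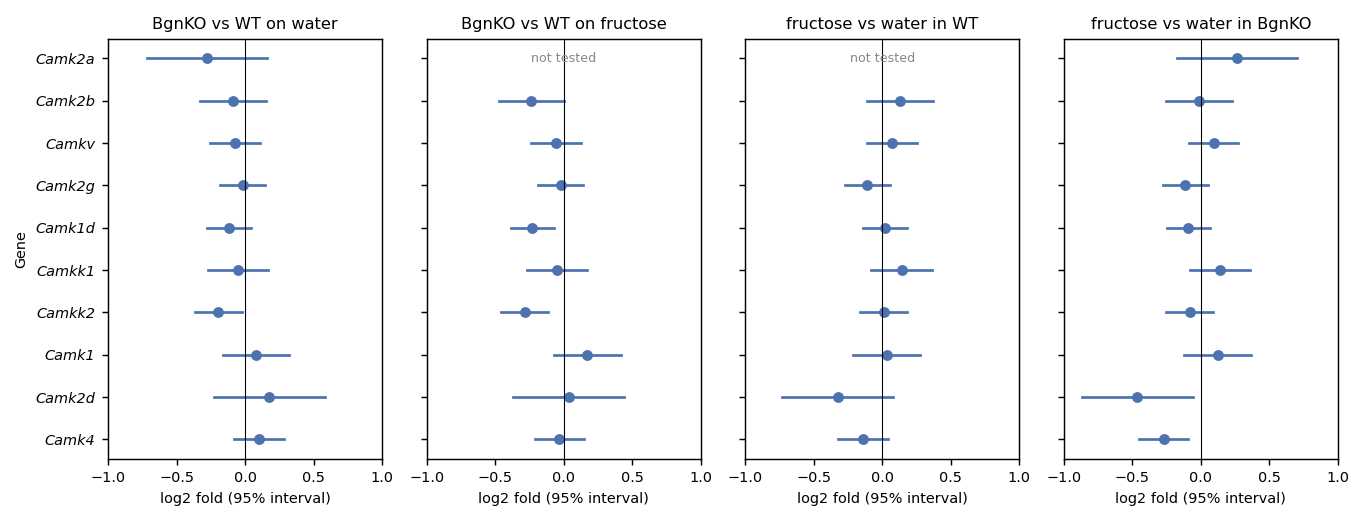
Difference between groups on the log2(FPKM + 1) scale (horizontal axis) for each member (vertical axis), with its 95% interval from limma (n = 4 libraries per group), in 4 comparisons. The intervals of Camk2a may be too narrow, since its 4 zeros enter the spread. Intervals that lie to the left of 0 are those of Camkk2 in both knockout against wild-type panels, Camk1d on fructose, and Camk2d and Camk4 for fructose against water in the knockout; none of these passed after adjustment over all genes.

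In whole tissue, fewer cells of a type and less RNA per cell cannot be told apart, and markers of cell types moved in the same comparison. On fructose the 8 excitatory neuron markers were lower in the knockout for 7, with a median difference of -0.23 and 0 called. The CA1 markers were lower for 4 of 5, and Wfs1 was called (-0.74, limma adjusted p = 0.00346). CA3 markers were lower for 3 of 5, and Iyd was called (-0.81, limma adjusted p = 0.0173). Dentate gyrus and inhibitory neuron markers were each lower for 5 of 6, and striatal markers for 5 of 7, with 0 called. Microglia markers and those of meninges and fibroblasts were each higher for 6 of 6, with 0 called. Endothelial markers were higher for 5 of 5, and Itm2a was called (0.62, limma adjusted p = 0.0322). Oligodendrocyte markers split 3 higher and 3 lower. The astrocyte markers were higher for 7 of 7 and 3 were called, where 3.76% of all genes were. They were Gfap (0.58, limma adjusted p = 0.0409), Aqp4 (0.54, 0.048) and Gja1 (0.42, 0.0297). Summed over the 7 markers, levels were 996 to 1329 FPKM in the knockout and 866 to 888 FPKM in the wild type. Marker values without wild-type fructose replicate 1 or knockout fructose replicate 4 are not given here. Choroid plexus markers, summed, ran from 229 to 4440 FPKM in wild-type fructose and from 2628 to 9137 FPKM in knockout fructose. The part of these cell types in the lower Camkk2, Camk1d and Camk2b values was not tested.

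The difference between the genotypes in their response to fructose was tested for 9 members. It ranged from -0.14 for Camk2b to 0.09 for Camk1, 0 were called, and limma adjusted p ran from 0.999 to 1. Over all genes 0.00791% were called, again Camk2a alone, with no reading to be made from it. By an unadjusted p under 0.05, 0 of the 9 members and 2.9% of all genes differed.

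Genes around the kinases were read as 6 lists. Of 18 other calmodulin-regulated kinases, 16 passed the filter, and 1 was called in each comparison of the genotypes: Pnck, a brain-enriched kinase of the CaMKI family (also CaMKI beta). It had 41.1, 37.0, 38.4 and 39.4 FPKM in wild-type water and 49.2, 50.8, 56.2 and 56.8 FPKM in knockout water. On fructose it had 41.5, 40.8, 46.7 and 39.4 FPKM in the wild type and 59.1, 54.97, 65.4 and 52.7 FPKM in the knockout. All 8 knockout libraries were above all 8 wild-type libraries. Over all genes, groups of 4 did not overlap for 4.01% on water and 11.0% on fructose, and no share was computed for 8 libraries against 8. The gain of Pnck was 0.44 on water (SE 0.08, limma adjusted p = 0.016) and 0.45 on fructose (SE 0.08, limma adjusted p = 0.00613). Of all genes, 0.387% were called on water and 3.76% on fructose.

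The call for Pnck on fructose held without each library of the 2 groups in turn, with adjusted p of 0.00641 to 0.0286. On water the call ended without wild-type water replicate 2, 3 or 4 (adjusted p = 0.0821, 0.0654 and 0.0583) or without knockout water replicate 3 or 4 (0.077 and 0.0699), while the difference stayed between 0.41 and 0.44. Pnck lies on chromosome X (chrX:73655994-73660117, minus strand, mm10), 160.1 kb from the end of the targeted gene Bgn (chrX:73483602-73495933, plus strand). The part of sequence carried along with the Bgn allele was not tested. The other 15 kinases of the list, among them Dclk3, Phkg1 and Dclk2, passed in neither comparison, 5 of 16 being higher and 11 lower in the knockout on water and on fructose alike.

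Of 16 genes for calcineurin and the phosphatases that oppose CaM kinases, 14 were tested. On fructose 1 of the 14 was called, where 3.76% of all genes were: Ppp3ca, the main catalytic subunit of calcineurin in brain, the calmodulin-dependent phosphatase. It had 729, 602, 637 and 623 FPKM in the wild type and 547, 450, 402 and 367 FPKM in the knockout, and the groups did not overlap, as for 11.0% of all genes. It fell by 0.56 (SE 0.12, limma adjusted p = 0.017). Without knockout fructose replicate 3 or 4 the adjusted p was 0.0501 and 0.055, and without both wild-type fructose replicate 1 and knockout fructose replicate 4 the difference was -0.42 with 0.105. On water the difference was -0.17 (limma adjusted p = 1). Ppm1f, a phosphatase that acts on CaMKII, was at 16.6 ± 0.94 against 14.5 ± 0.37 FPKM on fructose (SD, n = 4; limma adjusted p = 0.108).

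Of 24 synaptic partners and substrates of CaMKII, 22 were tested. On fructose 20 of the 22 were lower in the knockout, with a median of -0.22, where 52.5% of all genes were lower with a median of -0.01. That count is not given without wild-type fructose replicate 1 and knockout fructose replicate 4. By limma 1 of the 22 was called, where 3.76% of all genes were: Actn2, an alpha-actinin that binds CaMKII and NMDA receptors in spines. It had 6.73, 7.22, 7.23 and 6.28 FPKM in the wild type and 4.12, 5.22, 5.49 and 4.40 FPKM in the knockout. The groups did not overlap, as for 11.0% of all genes, and Actn2 fell by 0.44 (SE 0.10, limma adjusted p = 0.0297). That call ended without any 1 of the 4 wild-type fructose libraries (adjusted p = 0.0509, 0.086, 0.0789 and 0.0588 for replicates 1 to 4) and without knockout fructose replicate 4 (0.0996). The 8 excitatory neuron markers moved alongside, with 7 of 8 lower and a median of -0.23, and 7 of 7 astrocyte markers were higher; their part in the values of these 22 genes was not tested. Next in this list came Rasgrf1, a Ras exchange factor (169 ± 9.63 against 216 ± 17.8 FPKM, limma adjusted p = 0.054), the vesicle protein gene Syn1 (287 ± 36.4 against 370 ± 34.7 FPKM, 0.0626) and the calcium channel gene Cacna1d (4.81 ± 0.44 against 5.87 ± 0.12 FPKM, 0.0701; SD, n = 4 throughout). On water 19 of the 22 were lower, with a median of -0.08 and 0 called, against 50.5% of all genes.

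**Figure D5:**
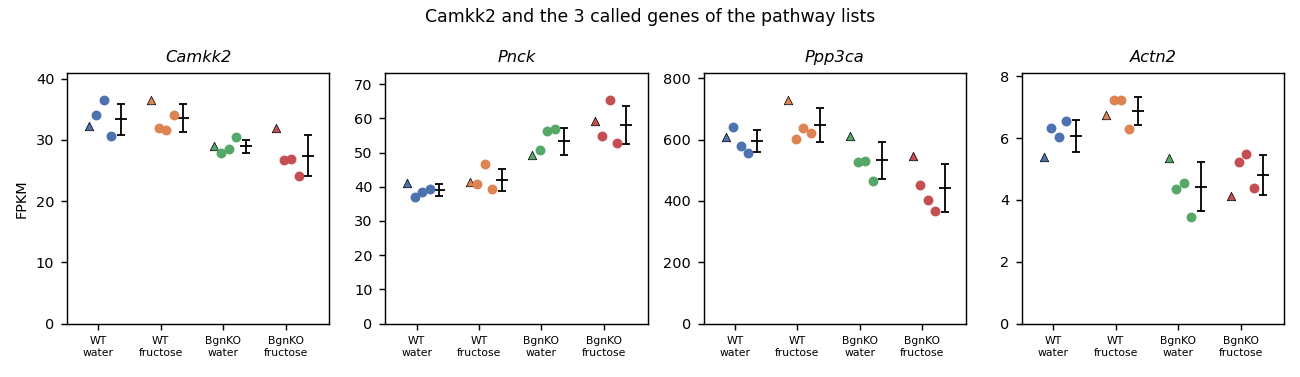
FPKM (vertical axis, from 0) by group (horizontal axis) of Camkk2 and of Pnck, Ppp3ca and Actn2; triangles are replicate 1, circles replicates 2 to 4, and the black marks the mean with its SD (n = 4). Pnck is higher in all 8 knockout libraries than in any wild-type library, and Ppp3ca and Actn2 are lower in all 4 knockout fructose libraries than in the 4 wild-type fructose libraries.

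The 3 remaining lists had 0 genes called in any comparison by limma. Calmodulin genes and the proteins that buffer calmodulin or inhibit CaMKII (11 tested) split 6 higher and 5 lower in the knockout on fructose, with a median of 0.001. The calmodulin-binding neurogranin gene Nrgn was at 1074 ± 143.3 against 1296 ± 119.3 FPKM (limma adjusted p = 0.173) and the CaMKII inhibitor gene Camk2n2 at 86.7 ± 12.8 against 71.8 ± 4.00 FPKM (0.182; SD, n = 4). Targets and cofactors of the Camk4 branch (16 tested), were lower for 12 of 16, with a median of -0.08. The smallest limma adjusted p was 0.218, for Hdac4, which was at 8.41 ± 0.35 against 7.40 ± 0.87 FPKM (SD, n = 4), and the next was 0.219, for Mef2a, at 37.5 ± 4.88 against 42.8 ± 2.69 FPKM. Messages that travel into dendrites as Camk2a does (12 tested) were higher for 8 of 12, with a median of 0.07, and Arc, at 39.7 ± 7.06 against 74.8 ± 31.3 FPKM (SD, n = 4), had the lowest p of that list (limma adjusted p = 0.109).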

How the data were processed

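The 16 hippocampal libraries were put into 4 groups of 4 by their sample titles. The authors deposited FPKM for 27670 loci. TopHat, Bowtie, Cufflinks, Cuffdiff and the build mm10 are named in the submitters' processing notes. Versions, strand setting, annotation and library scaling are not given in the sources used here. FPKM carries no depth, so no counting interval is given. How the authors scaled libraries could move all genes of a library together.

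Loci of one name were summed. Named entries with a mean of at least 1 FPKM (12648) were fitted with limma 3.58.1 in R 4.3.3 on log2(FPKM + 1), with 4 group means, a trended prior and all 16 libraries, and p-values were Benjamini-Hochberg adjusted over all genes of a comparison at a threshold of 0.05. A fold change on this scale understates that of low genes. The fit was tested on simulated data with log2 folds of 1 between the genotypes on water and independent noise in each library. It held no effect shared by replicate 1 and no smaller folds, so it does not cover the differences reported here. The 5 comparisons read were knockout against wild type on each drink, fructose against water in each genotype, and the difference between them. Comparisons that share a group are not independent. The members and gene lists were chosen with earlier results of these data known. Named were all members, list genes that passed over all genes and up to 4 of each list by smallest p in the comparison with the most calls, loci with the zero pattern of Camk2a, and annotated neighbours. Cdx1, Tcof1 and Cd74 count among the neighbours; Nisch, Rn45s, Mir137, Snord88c and Snord8 were named after their values were seen.

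Replicate numbers were checked for pairing by the correlation of same-numbered libraries' deviations from their group means. For fructose against water they were 0.699, 0.118, 0.337 and 0.329 in the wild type and 0.612, 0.377, 0.214 and 0.197 in the knockout. Among replicates 2 to 4 alone they were 0.034, 0.135 and 0.003, and 0.314, -0.042 and 0.136, so the likeness rests largely on replicate 1. The fits reported in the results are unpaired, with no term for replicate, which leaves the likeness of replicate 1 in their spread. A replicate block and a term for replicate 1 were alternatives, and both gave more calls between the genotypes. For knockout against wild type they were 0.689, 0.072, 0.116 and -0.04 on water and 0.75, 0.412, 0.259 and 0.087 on fructose. Gene positions are from the mm10 annotation and promoters from RefSeq on GRCm38.p6, matched by symbol for 7 of 10 members. Alternatives varied the pseudocount (0.1), the filter (none, or at least 5 FPKM), the scaling, the block, and the libraries used.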

Additional observations from a re-analysis of the deposited data

Results flagged for a closer look

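Among the 39 groups of 4 libraries examined, the wild-type water group of Camk1, a kinase of the CaMKK cascade, held 1 library far from the others. Replicate 3 had 31.7 FPKM and the other 3 had 26.8 to 27.3 FPKM, a gap of 0.894 of the group's range and beyond the 95% limit of Dixon's test. Chance alone marks about 1 such group in 20, and 1 was found among 39.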

How the results depend on the processing

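Depth cannot be read from FPKM, replicate 1 differs from the rest in every group, and 4 libraries a group leave intervals as wide as those given. Camk2a is 0 in wild-type fructose under every setting, since no setting changes a zero.

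Of the 9 members tested between genotypes on fructose, 0 passed as reported. With quantile normalization 1 passed (Camkk2), where 4.21% of all genes did. With the replicate number as a block 2 passed, Camkk2 (limma adjusted p = 0.0208) and Camk1d (0.0417), where 19.6% of all genes did. With a term for replicate 1 it was 2 (17.3% of all genes), with replicates 2 to 4 alone 3 (10.9%), and with 1 library left out 0 to 2. In the other comparisons 0 members passed under any alternative tried. For fructose against water the block changed no member's call. The correlation of same-numbered libraries was highest at replicate 1 in every comparison of 2 groups. It was 0.689 and 0.75 there for knockout against wild type on water and on fructose. For fructose against water it was 0.699 in the wild type and 0.612 in the knockout. Between the genotypes, a library correlated best with its own number in 1 of 4 pairs on water and 3 of 4 on fructose.

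Over all genes, the count called on water was 49. It was 26 with a mean of at least 5 FPKM, 125 with the replicate block, 126 with the term for replicate 1, 79 in replicates 2 to 4, 78 with unnamed loci kept, and 30 to 57 with 1 library left out. On fructose the count was 475. It was 313, 2483, 2190 and 1373 under the first 4 of those settings, 137 without both wild-type fructose replicate 1 and knockout fructose replicate 4, and 147 to 940 with 1 library left out. For fructose in the wild type 1 became 3, and for the difference of differences 1 became 2, in replicates 2 to 4.

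Reversals of sign touched only differences near 0, of which none had passed. On water Camk2g was 0 after quantile normalization. On fructose, without the pair of libraries named above, Camk2g was 0.015, Camk4 0.048, Camkk1 0.087 and Camkv 0.03. For fructose in the wild type Camk1d was -0.004 (quantile) and -0.023 (replicates 2 to 4), and Camkk2 was -0.015 (quantile), -0.002 (median-ratio rescaling), -0.046 (replicates 2 to 4) and -0.031 (without the pair). In the knockout Camk2b was 0.06 without the pair. For the difference of differences Camkk1 was 0.002 (quantile), 0.011 (median-ratio) and 0.137 (without the pair), Camk2g 0.007 (median-ratio) and 0.033, Camk1 -0.029 and Camkk2 0.007 (all without the pair).

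With 1 library left out in turn, these values crossed 0. Between genotypes on water, Camkk1 ran from -0.091 to 0.001 and Camk2g from -0.062 to 0.037. Between genotypes on fructose, Camk2d ran from -0.078 to 0.152, Camk2g from -0.052 to 0.031, Camk4 from -0.086 to 0.041 and Camkk1 from -0.155 to 0.024. For fructose in the wild type, Camk1 ran from -0.035 to 0.125, Camk1d from -0.021 to 0.084 and Camkk2 from -0.031 to 0.053. For fructose in the knockout, Camk2b ran from -0.133 to 0.06. For the difference of differences, Camk1 ran from -0.002 to 0.17, Camk2g from -0.06 to 0.049, Camkk1 from -0.105 to 0.074 and Camkv from -0.066 to 0.068. The cause of these changes was not tested.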
